A study of Homo sapiens with 4 samples.

Results

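Integrins and laminins, the receptors and the matrix chains through which an epithelial cell holds its basement membrane, were followed from parental to cisplatin-resistant head and neck squamous cell carcinoma (HNSCC) cells. A gene was taken as a member when the gene name printed on the array had the form of an integrin α or β chain or of a laminin α, β or γ chain, whatever its measured value. The rule found 38 genes of the 43305 named on the array, 26 integrins (18 α and 8 β chains) and 12 laminins (5 α, 4 β and 3 γ chains), and 58 probes read them. The 4 conditions were measured with 1 one-colour Agilent expression array each. HN4 and HN30 are established HNSCC lines grown in DMEM with fetal bovine serum, and served as the parental controls. HN4_CR and HN30_CR, called HN4/DDP and HN30/DDP in the study, are lines selected from these by raising the dose of cisplatin in steps. Cisplatin is a platinum compound whose adducts cross-link DNA. Both resistant lines were held in 20 μM cisplatin for 48 h per the labels, and the parental cells carried no drug label, so selection for resistance and the presence of the drug cannot be told apart. Each resistant line is 1 derived line, and no array was repeated.

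A laminin is a cross-shaped trimer of 1 α, 1 β and 1 γ chain that cells secrete and lay down as a sheet, the basement membrane. An integrin is a pair of 1 α and 1 β chain that spans the cell membrane, holds a matrix or cell surface ligand outside and the cytoskeleton inside, and signals on binding through focal adhesion kinase, Src and the PI3K-AKT pathway. In stratified epithelia the laminin that holds the α3 and β3 chains is gripped by the α6β4 integrin in hemidesmosomes, the rivets that tie keratin filaments to the basement membrane, and by the α3β1 integrin in focal contacts. Squamous carcinomas of the head and neck are known for abundant α6β4.

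A level is given throughout as log2 of the background-corrected signal relative to the 75th percentile of the same array, and a difference as the resistant level minus the parental level. The scanner SD beside a difference is the error that the scanning software estimated for the spots. It covers no variation between cultures. A probe that the software did not mark as well above background is called dim. Levels of different probes cannot be set against each other, so each gene is compared with itself across the arrays. Of the 38 members, 29 were well above background on all 4 arrays (76.3%, against 51.1% of all genes and 72.9% of the 18227 genes read by a RefSeq messenger RNA probe), and ITGA4, ITGA8 and ITGB3 on none. The number above background was 33 in HN4, 34 in HN4_CR, 29 in HN30 and 34 in HN30_CR. Over all 43305 genes it was 24798, 25525, 23950 and 27625 in the same order, so HN30 was lowest and HN30_CR highest there too. No spot was saturated. All 4 arrays lay on 1 slide and came from 1 scan. The squamous label was checked with 10 epithelial markers. Of these, 9 were well above background on every array, while KRT6A was dim on HN30_CR.

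The 2 parental arrays were closer to each other than the 2 resistant arrays were, in this gene family and over all genes. Between HN4 and HN30 the level differed by less than 0.5 for 31 of 38 members (81.6%, against 67.7% of all genes and 72.5% of those with a RefSeq messenger RNA probe), and between HN4_CR and HN30_CR for 18 of 38 (47.4%, against 51.0% and 47.8%). The median difference from parental to resistant was -0.24 in HN4_CR over the members and -0.21 over all genes. In HN30_CR it was 0.45 over the members and -0.07 over all genes. The HN30 value over the members became -0.015 with the normexp background correction and 0.029 with arrays scaled to their medians, against -0.19 and -0.49 over all genes. The difference had opposite signs in the 2 lines for 16 of 38 members (42.1%, against 41.2% of all genes). Past a difference of 2, which is the size the study used, HN4_CR had 1 member called higher, LAMA1, and 0 called lower, where 2.24% and 1.36% of all genes were called. HN30_CR had 1 member higher, ITGAM, and 0 lower, where 5.48% and 1.8% of all genes were called. The ITGAM difference came below 2 in HN30 with normexp (0.90), a pseudocount of 16 (1.64), median scaling (1.64), the authors' deposited values (1.69), quantile scaling (1.71) and the percentile over averaged probes (1.93). With quantile scaling LAMB2 (2.40) and ITGB2 (2.12) passed 2 in its place, and with the deposited values they did so too (2.41 and 2.11). Past a difference of 1, HN4_CR had 4 members higher (10.5%, against 5.77% of all genes) and 3 lower (7.89%, against 5.36%). HN30_CR had 7 higher (18.4%, against 12.9%) and 2 lower (5.26%, against 8.67%). These counts rest on few genes, and no test compares 1 array with 1 array. The scale matters in HN30, where the median difference of all genes ran from -0.49 with arrays scaled to their medians to 0.19 with the percentile taken over probes above background on all arrays. Under 11 alternative settings the sign held for 32 of 38 members in HN4 and 21 of 38 in HN30, and it held for all 7 and all 9 members past 1. The size held less well. With normexp ITGAM, LAMC3 and ITGB7 in HN4 and ITGAM, ITGA2B and ITGAX in HN30 came below 1, and with arrays scaled to their medians ITGB4, LAMB3, ITGA2B and ITGAX did so in HN30. LAMA4 came to -0.90 in HN30 with the percentile over probes above background on all arrays, -0.65 with the mean of its probes and -0.14 with its faintest probe. Members whose sign changed under at least 1 setting included ITGA2B, ITGA7, ITGA9, ITGAD, ITGAX and LAMA3 in HN4. In HN30 they included ITGA2, ITGA4, ITGA5, ITGA9, ITGA11, ITGAL, ITGAV, ITGB1, ITGB3, ITGB5, ITGB7, LAMA3, LAMB1, LAMB4, LAMC1 and LAMC3. The differences in both lines are drawn in the plot ordered by role.

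**Figure D1:**
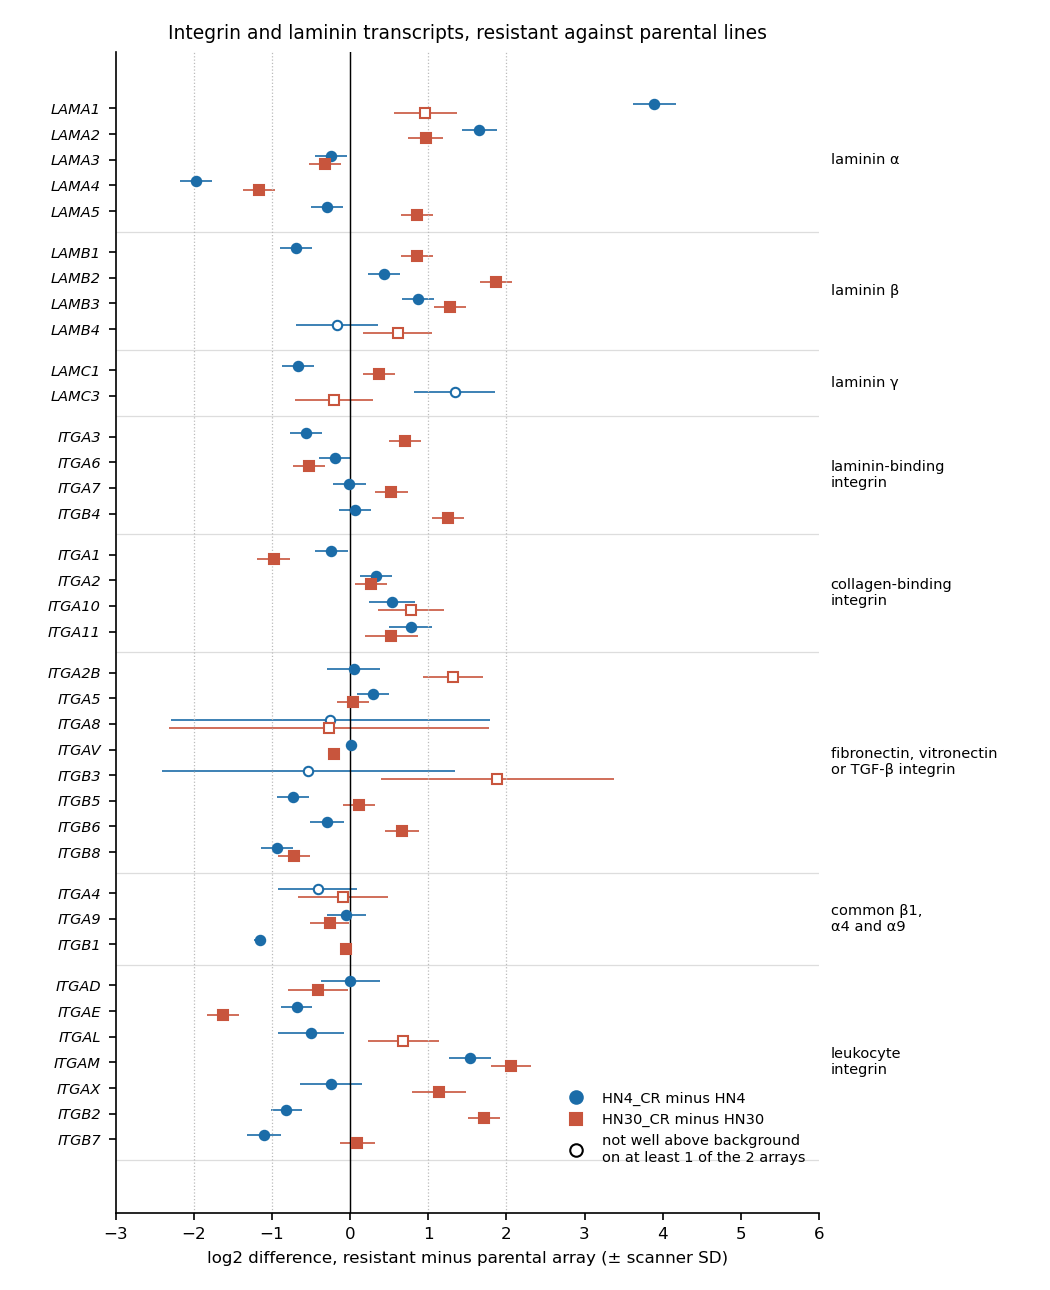
Difference in log2 level between the resistant and the parental array for members grouped by role, with circles for HN4 and squares for HN30, bars of 1 scanner SD, and open symbols where a probe was dim on 1 or both arrays. LAMA1 in HN4 (3.90) stands farthest to the right, ITGAM and LAMB3 are right of 0 and LAMA4 is left of 0 in both lines, and ITGB2 and LAMB1 lie on opposite sides of 0.

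Among the laminin α chains, LAMA1 and LAMA2 were higher and LAMA4 was lower by more than 1 in HN4_CR, and in HN30_CR LAMA4 alone passed 1 on its representing probe. LAMA1, the α chain of the first embryonic basement membranes, was read by a probe at chr18:6941976-6942035 (hg19, minus strand). It read -4.04 in HN4, -0.14 in HN4_CR, -4.73 in HN30 (dim) and -3.77 in HN30_CR. HN4_CR thus stood alone, 14.9-fold above its parental array (difference 3.90, scanner SD 0.28, and 2.38 with normexp), and HN30_CR was at least 1.81-fold above HN30 (difference 0.96, and 0.089 with normexp). A bound of this kind sets the dim array at the weakest signal that counted as well above background, or at its own signal where that was higher. The other LAMA1 probe was dim on all arrays, so the large value comes from 1 probe.

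LAMA2, the α chain of muscle and nerve basement membranes, read -3.05 in HN4, -1.40 in HN4_CR, -2.78 in HN30 and -1.81 in HN30_CR. Both resistant arrays lay above both parental arrays, by 1.65 in HN4 and 0.97 in HN30 (1.01 and 0.465 with normexp). LAMA4, an α chain of vessel walls and mesenchyme, went the other way. Its probe lies at chr6:112574987-112575046 (hg19, minus strand). It read -0.16 in HN4, -2.13 in HN4_CR, -0.48 in HN30 and -1.65 in HN30_CR, 3.92-fold and 2.24-fold below the parental arrays. Of 4 LAMA4 probes, 3 differed by -2.09 to -1.83 in HN4 and by -1.16 to -0.59 in HN30, and the faintest read -0.28 and -0.14.

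LAMA3, the α chain of the hemidesmosomal laminin, differed by -0.25 in HN4 and -0.32 in HN30, while a fainter LAMA3 probe, for a non-coding transcript, read 0.54 and -1.04. LAMA5, the α chain of most adult epithelial basement membranes, read 7.64 in HN4, 7.34 in HN4_CR, 6.92 in HN30 and 7.78 in HN30_CR. Its difference was -0.30 in HN4 and 0.86 in HN30, and its fainter probe gave -0.24 and 1.49. The lists of endothelial, fibroblast and muscle markers bear on these chains. Of 7 endothelial markers 1 was above background on all arrays and 3 on none, with a summed level (linear, in units of the 75th percentile) of 0.289 in HN4, 0.337 in HN4_CR, 0.248 in HN30 and 0.538 in HN30_CR. Of 7 fibroblast markers 2 were above background on all arrays and 5 on none, and COL1A1, a collagen chain, differed by 1.73 and 2.43. PDGFRB, the other of the 2 and a receptor of mesenchymal cells, differed by -0.01 and 0.63. The summed level of the 7 was 0.402 in HN4, 1.03 in HN4_CR, 0.243 in HN30 and 0.791 in HN30_CR, higher in both resistant arrays. Of 4 muscle markers 1 was above background on all arrays, with a summed level of 0.820, 0.772, 0.895 and 0.890 in the same order. Their part in the laminin values was not tested.

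The laminin β chains were the group in which HN30_CR stood highest, with all 4 above the HN30 level on this scale (for LAMB1 and LAMB4 another setting turned the sign). LAMB3, the β chain of the hemidesmosomal laminin, was read by a probe at chr1:209788356-209788415 (hg19, minus strand). It read 6.07 in HN4, 6.94 in HN4_CR, 6.01 in HN30 and 7.29 in HN30_CR. Both parental arrays lay close together and both resistant arrays above them, 1.83-fold in HN4 (difference 0.87, scanner SD 0.20) and 2.42-fold in HN30 (1.28, scanner SD 0.20). LAMB2, a β chain of kidney and synaptic basement membranes, read 3.94 in HN4, 4.37 in HN4_CR, 3.59 in HN30 and 5.46 in HN30_CR. It was 1.35-fold higher in HN4_CR and 3.66-fold higher in HN30_CR, and its second probe gave differences of 0.47 and 1.87, close to 0.43 and 1.87 of the first.

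LAMB1, the common β chain, read 5.78 in HN4, 5.09 in HN4_CR, 5.40 in HN30 and 6.26 in HN30_CR. HN4_CR was the lowest and HN30_CR the highest of the 4 (-0.69 and 0.86), but 2 fainter probes, for other transcripts, gave 0.19 and -0.36 in HN4 and -0.17 and -0.63 in HN30. LAMB4 was dim on all arrays but HN30_CR, where it was at least 1.27-fold above HN30. Its second probe was above background in HN4 and HN30_CR only.

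LAMC1, the common γ chain, differed by -0.67 in HN4 and 0.37 in HN30, the same signs as LAMB1, though the HN30 sign turned with arrays scaled to their medians. The probe that represents LAMC3 was above background in HN4_CR only, at least 1.69-fold over HN4. Of its other probes 1 was above background in HN30 only (-3.82) and 1 in HN30_CR only (-3.99), and the 3 probes differed in direction in HN30. Over the 12 laminins the median difference was -0.21 in HN4, which is also the median of all genes there, and 0.73 in HN30. The HN4 value turned to 0.12 with the faintest probe of each gene and to 0.33 as a mean, and the HN30 value ran from 0.18 with normexp to 1.00 with the percentile over probes above background on all arrays.

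Promoter letters are shown for 4 members, chosen after their values were seen and as examples of stretches that hold a motif. LAMB3 and ITGAM had both resistant arrays above both parental arrays, LAMA4 had both below, and LAMB2 was highest in HN30_CR with both of its probes. RefSeq held promoters of 26 of the 38 members. The stretches are the 250 bases before the annotated start on GRCh38.p14, written 5′ to 3′ along the gene. Capitals mark TGACG, the core of the cAMP response element that CREB factors read, TGANTCA, the letters of the AP-1 element, and GGGCGG, the GC box, each on either strand. No motif overlapped another here. LAMB3 has 3 annotated starts, and the first in genome order is shown.
LAMB3, chr1:209651375-209651624, minus strand: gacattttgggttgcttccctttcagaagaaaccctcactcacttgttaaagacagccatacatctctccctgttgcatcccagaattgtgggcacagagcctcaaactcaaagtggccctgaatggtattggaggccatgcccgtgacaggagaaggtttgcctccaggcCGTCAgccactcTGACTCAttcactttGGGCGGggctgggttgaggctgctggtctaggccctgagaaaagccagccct
LAMB2, chr3:49133051-49133300, minus strand: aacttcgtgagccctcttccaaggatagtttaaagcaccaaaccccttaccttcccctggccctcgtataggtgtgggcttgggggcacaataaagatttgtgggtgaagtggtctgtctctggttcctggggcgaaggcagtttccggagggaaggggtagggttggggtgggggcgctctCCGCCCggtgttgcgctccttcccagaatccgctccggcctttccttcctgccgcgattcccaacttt
ITGAM, chr16:31259725-31259974, plus strand: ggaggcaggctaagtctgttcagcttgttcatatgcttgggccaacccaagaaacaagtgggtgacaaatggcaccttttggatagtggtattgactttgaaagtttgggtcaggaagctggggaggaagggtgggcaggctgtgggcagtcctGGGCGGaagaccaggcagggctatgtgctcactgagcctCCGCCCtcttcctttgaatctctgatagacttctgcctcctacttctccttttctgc
LAMA4, chr6:112254568-112254817, minus strand: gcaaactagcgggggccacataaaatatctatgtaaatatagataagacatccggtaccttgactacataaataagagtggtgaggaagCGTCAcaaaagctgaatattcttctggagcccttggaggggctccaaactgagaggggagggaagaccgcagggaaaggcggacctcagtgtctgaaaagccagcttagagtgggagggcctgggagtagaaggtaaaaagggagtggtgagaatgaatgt
The LAMB3 stretch holds all 3 motifs, beginning 79, 67 and 52 bases before the start. The stretches before its 2 other starts, which overlap each other, each hold TGACG 2 times and 1 GC box but no TGANTCA. LAMB2 holds 1 GC box at 68 bases and ITGAM holds 2 at 96 and 57 bases. LAMA4 holds 1 TGACG at 161 bases, on the opposite strand. Across the promoters of all genes, 21.2% hold TGACG, 6.57% hold TGANTCA and 42.6% hold GGGCGG in a window of this length, and of the 33 promoters of members 9 (27.3%), 2 (6.06%) and 17 (51.5%) do. LAMB3, which was higher, and LAMA4, which was lower, both carry TGACG. Of the 29 members above background on all arrays, 7 (24.1%) had both resistant arrays above both parental arrays and 8 (27.6%) had both below, against 18.3% and 29% of all genes above background on all arrays. Among those with a RefSeq promoter that are not shown, LAMA2, ITGAE and ITGA1 hold none of the 3 motifs, and ITGA5, ITGA6, ITGA11, ITGB1, ITGB8 and LAMA3 hold at least 1 before at least 1 start. The arrays measured transcripts and not promoters, so a match is a description of the letters alone.

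**Figure D2:**
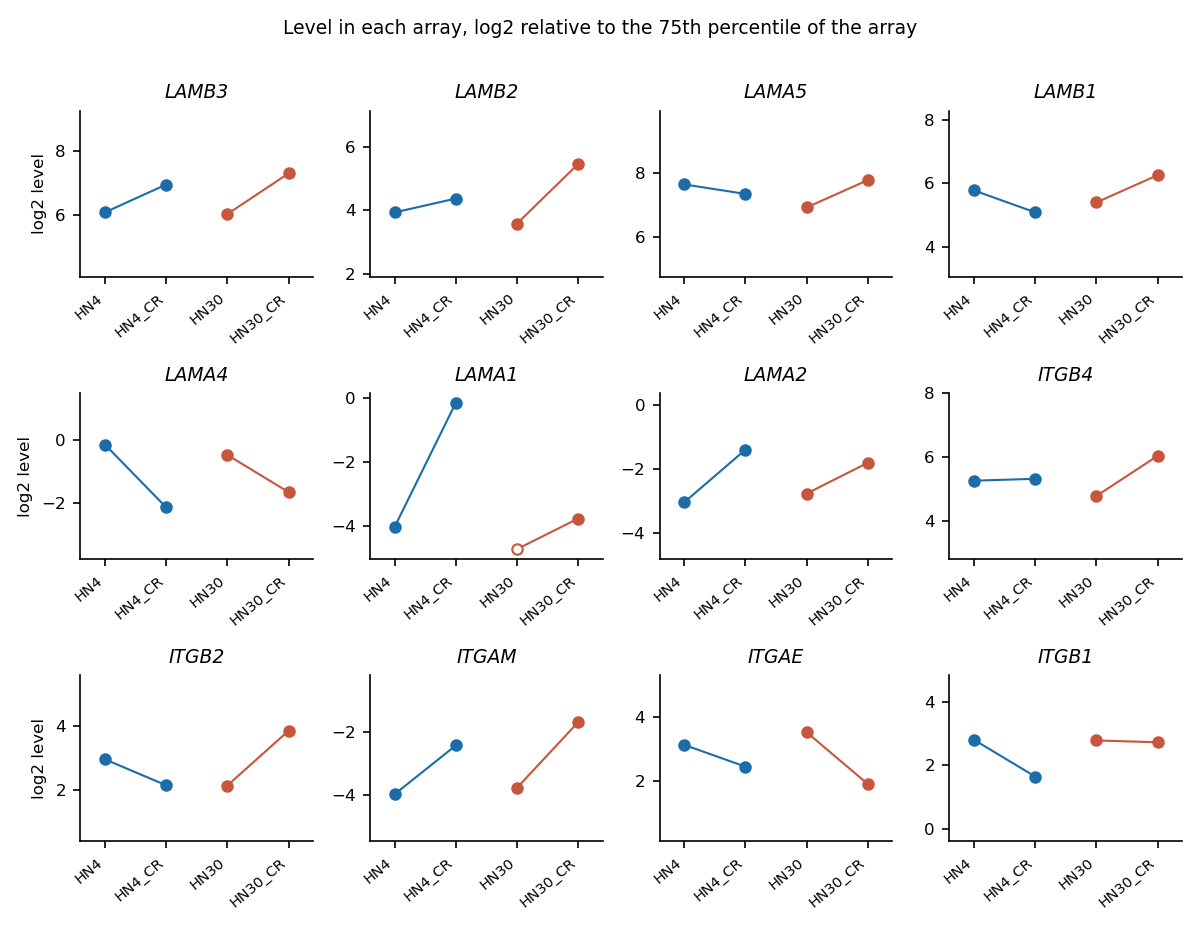
Level of 12 members in each of the 4 arrays, as log2 relative to the 75th percentile of the array, with 1 point per array, an open point where the probe was dim, lines joining a resistant array to its parental array, and the same span on every vertical axis. LAMB3, LAMA2 and ITGAM slope upward and LAMA4 and ITGAE downward in both lines, and ITGB2 and LAMB1 slope in opposite directions.

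The 4 integrin chains that bind laminin lay within 1 of the parental level in HN4, and on this scale ITGB4 alone passed 1 in HN30. ITGB4, the β4 chain of the hemidesmosome, read 5.25 in HN4, 5.31 in HN4_CR, 4.77 in HN30 and 6.03 in HN30_CR, so it was level in HN4 (0.06) and 2.39-fold higher in HN30_CR (1.26, scanner SD 0.20). Its only partner, ITGA6, read 4.32, 4.13, 4.36 and 3.84 in the same order, with differences of -0.19 and -0.52 that a second probe repeated at -0.14 and -0.50. The differences of the 2 chains of the α6β4 receptor thus had opposite signs in HN30_CR, though that of ITGA6 shrank to -0.037 with the authors' deposited values, where ITGB4 read 1.80. ITGA3, the α chain of the α3β1 receptor, read 3.78, 3.21, 3.92 and 4.62, 1.48-fold lower in HN4_CR and 1.63-fold higher in HN30_CR. Its HN30 difference was 1.22 with the authors' deposited values, and it passed 1 with quantile scaling too. ITGA7, known best as the laminin receptor of muscle, differed by -0.01 and 0.53.

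ITGB1, the β chain shared by most integrins, read 2.80 in HN4, 1.65 in HN4_CR, 2.78 in HN30 and 2.73 in HN30_CR. HN4_CR alone was low, 2.22-fold below HN4, with a scanner SD of 0.07 because 8 spots were averaged, and HN30_CR differed by -0.06. A second ITGB1 probe, of another transcript, was above background in HN30 only. Among the collagen receptors that pair with β1, ITGA1 differed by -0.24 and -0.97, ITGA2 by 0.33 and 0.27, and ITGA11 by 0.78 and 0.53. ITGA10 was 1.45-fold higher in HN4_CR and at least 1.49-fold higher in HN30_CR. Apart from ITGA1 the collagen-binding chains were thus above the parental level on this scale. In HN30 the sign of ITGA2 turned with arrays scaled to their medians (-0.15) and that of ITGA11 with normexp (-0.047). ITGA10 fell to 0.0093 in HN30 with normexp. ITGA4 was dim throughout and ITGA9, a receptor of tenascin and VCAM1, differed by -0.05 and -0.26.

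Among the receptors of fibronectin, vitronectin and latent TGF-β, the 5 chains above background on all arrays differed by less than 1 in both lines. ITGAV, the αv chain common to several of them, differed by 0.02 and -0.21 with a scanner SD of 0.06 over 10 spots. ITGA5, its fibronectin-binding relative, differed by 0.29 and 0.04. Among the β partners of αv, ITGB8 was lower in both lines (-0.94 and -0.71), ITGB5 was lower in HN4_CR (-0.72, and 0.11 in HN30), and ITGB6, the β chain induced in wounded and malignant epithelium, read -0.30 and 0.66. ITGA8 and ITGB3 were dim on all arrays and give no fold. ITGA2B, the platelet α chain, was at least 2.39-fold higher in HN30_CR and level in HN4 (0.05). Of 4 platelet markers 1 was above background on all arrays and their summed level was 0.266 in HN4, 0.183 in HN4_CR, 0.270 in HN30 and 0.241 in HN30_CR, and HN30_CR was not the highest. Their part in the ITGA2B value was not tested.

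Integrin chains named for white blood cells held the widest spread among the receptors, with ITGAM higher and ITGAE lower in both lines. ITGAM, the αM chain that with β2 forms the complement receptor of myeloid cells, was read by a probe at chr16:31343816-31343875 (hg19, plus strand). It read -3.97 in HN4, -2.43 in HN4_CR, -3.76 in HN30 and -1.70 in HN30_CR. Both resistant arrays stood above both parental arrays, 2.89-fold and 4.17-fold (differences of 1.53 and 2.06, scanner SD 0.27 and 0.26, and 0.68 and 0.90 with normexp). The weakest signal marked as well above background was -4.76 in HN4, -4.99 in HN4_CR, -4.63 in HN30 and -4.94 in HN30_CR, so the parental ITGAM values lay within 1 of it. ITGB2, its β2 partner, read 2.96, 2.15, 2.14 and 3.85 and had opposite signs in the lines, 1.76-fold lower in HN4_CR and 3.29-fold higher in HN30_CR. A second ITGB2 probe gave -0.58 and 1.32, the same directions.

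ITGAE, the αE chain that binds E-cadherin, read 3.13 in HN4, 2.45 in HN4_CR, 3.53 in HN30 and 1.91 in HN30_CR. Both resistant arrays lay below both parental arrays, 1.61-fold and 3.09-fold. Its partner ITGB7 read -1.83, -2.93, -2.63 and -2.54, 2.14-fold lower in HN4_CR and level in HN30_CR (0.09). ITGAX differed by -0.25 and 1.14, ITGAL by -0.50 with at least 1.31-fold more in HN30_CR, and ITGAD by 0.01 and -0.41.

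Leukocyte markers were measured beside these chains. PTPRC, the pan-leukocyte phosphatase CD45, read -2.84, -2.94, -3.10 and -2.94 and differed by -0.10 and 0.16. MS4A1, CD53 and FCGR3A were dim on all arrays. CD14, a monocyte coreceptor of lipopolysaccharide, read 2.63 in HN4, 3.19 in HN4_CR, 1.82 in HN30 and 5.30 in HN30_CR. Of 9 leukocyte markers with a probe, 4 were above background on every array and 5 in HN30_CR. Past 1, 1 was higher in HN4_CR and 2 in HN30_CR (5.77% and 12.9% of all genes), and 0 were lower (5.36% and 8.67%). The summed level of the 9 (linear) was 7.55, 12.8, 4.29 and 40.2. Bright probes weigh most in such a sum, which says nothing of how the markers compare with each other. Without CD14 the sum of the other 8 was 1.36 in HN4, 3.65 in HN4_CR, 0.774 in HN30 and 0.769 in HN30_CR, highest in HN4_CR. CSF1R, a receptor of macrophages, differed by 1.66 in HN4 and -0.11 in HN30. The part of such cells in the integrin values was not tested. In these bulk cultures a change in every cell and a change in the share of some cells cannot be told apart.

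Over both lines together, only ITGAM was higher and only LAMA4 lower by more than 1 in both (2.66% and 1.18% of all genes did so), and no member passed 2 in both (0.688% of all genes were higher and 0.0808% lower past 2 in both). With normexp ITGAM passed 1 in neither line. Under other settings further members were higher past 1 in both lines. LAMB3 was so with quantile scaling and with the authors' deposited values (1.06 in HN4 and 1.74 in HN30 with the latter). LAMA1 and LAMA2 were so with the percentile over probes above background on all arrays. ITGAX was so with the mean of its probes or its faintest probe. LAMA4 did not pass 1 in HN30 under the 3 settings named above, and with the mean of the probes ITGB1 took its place as the member lower in both lines (-1.11 and -1.27). That HN30 value of ITGB1 rests on its second probe (-2.49), which was dim in HN30_CR. The probe that represents ITGB1 read -0.06 there. The plot of the 2 lines against each other places the members over all genes. With cell line as a block, limma compared the 2 resistant with the 2 parental arrays over 29521 genes, leaving 1 residual degree of freedom. No gene passed an adjusted p of 0.05 by limma (0 of 29521, smallest adjusted p = 0.382, with 2537 genes at an unadjusted p under 0.05), nor did any of the 35 members tested, of which 5 had an unadjusted p under 0.05. These were ITGAM (1.80, SE 0.37, limma adjusted p = 0.463), LAMB3 (1.07, SE 0.27, limma adjusted p = 0.499), LAMA4 (-1.57, SE 0.40, limma adjusted p = 0.499), LAMA2 (1.31, SE 0.37, limma adjusted p = 0.510) and LAMA1 (2.43, SE 0.79, limma adjusted p = 0.536). In simulations of this comparison 200 genes were given a log2 shift of 3. The fit found 100% of them, with 10 false calls, when all genes shared 1 spread. It found 0% when each gene took its own spread from the arrays, so a count of 0 does not show that no gene changed.

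**Figure D3:**
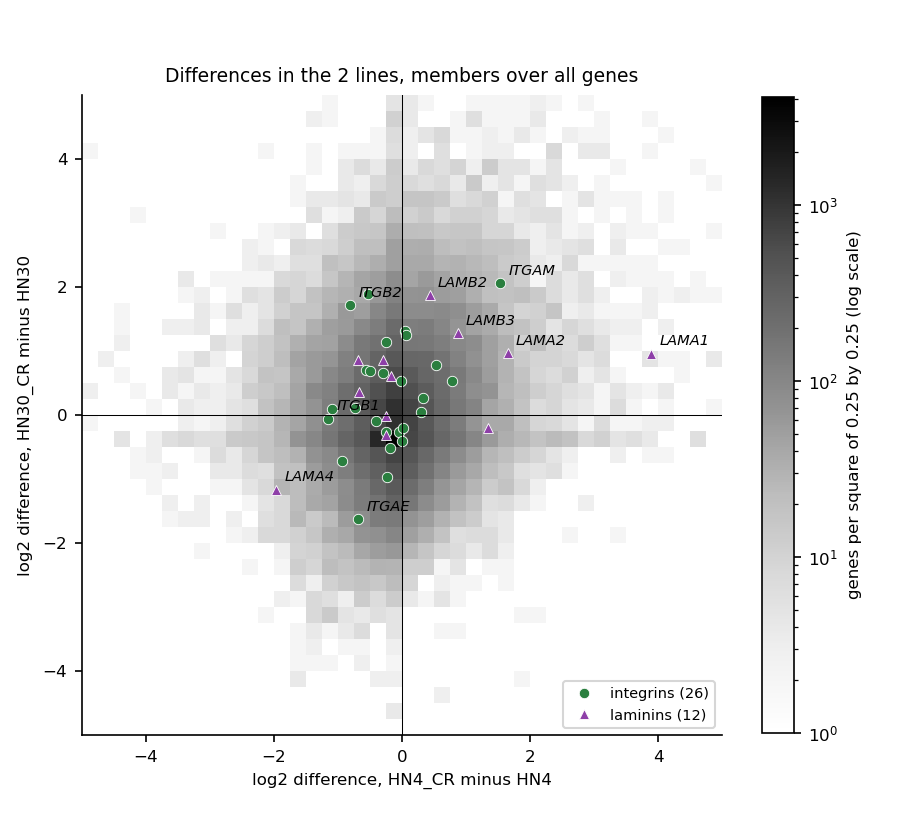
Difference in HN4 (horizontal) against difference in HN30 (vertical), both resistant minus parental in log2, with grey squares counting all genes on a log scale, circles for the 26 integrins and triangles for the 12 laminins, and axes ending at 5. ITGAM, LAMA2, LAMB3 and LAMA1 lie in the upper right, LAMA4 and ITGAE in the lower left, and ITGB2 in the upper left.

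For 15 members more than 1 probe was on the array, and the probes had 1 sign in both lines for 8 of them, among which were ITGA6, ITGB1, ITGB2, LAMA4, LAMA5, LAMB2 and LAMB4. They had different signs in at least 1 line for 7 (ITGA4, ITGAD, ITGAX, LAMA1, LAMA3, LAMB1 and LAMC3). ITGAX carried the largest such gap in HN4, where its brighter probe, for a transcript listed under an Ensembl name, read -0.25 and the probe for its RefSeq transcript read 2.46, from a dim parental value that allows only at least 1.12-fold. In 5 of these 7 at least 1 probe was dim on an array, and in LAMA3 and LAMB1 all probes were above background on every array, as the plot of all probes shows. Of the members whose probes had 1 sign, ITGB1 and LAMB4 also had probes dim on some arrays. Their probes shared a sign but not a size, with -0.06 and -2.49 for ITGB1 in HN30 and -0.17 and -3.89 for LAMB4 in HN4.

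**Figure D4:**
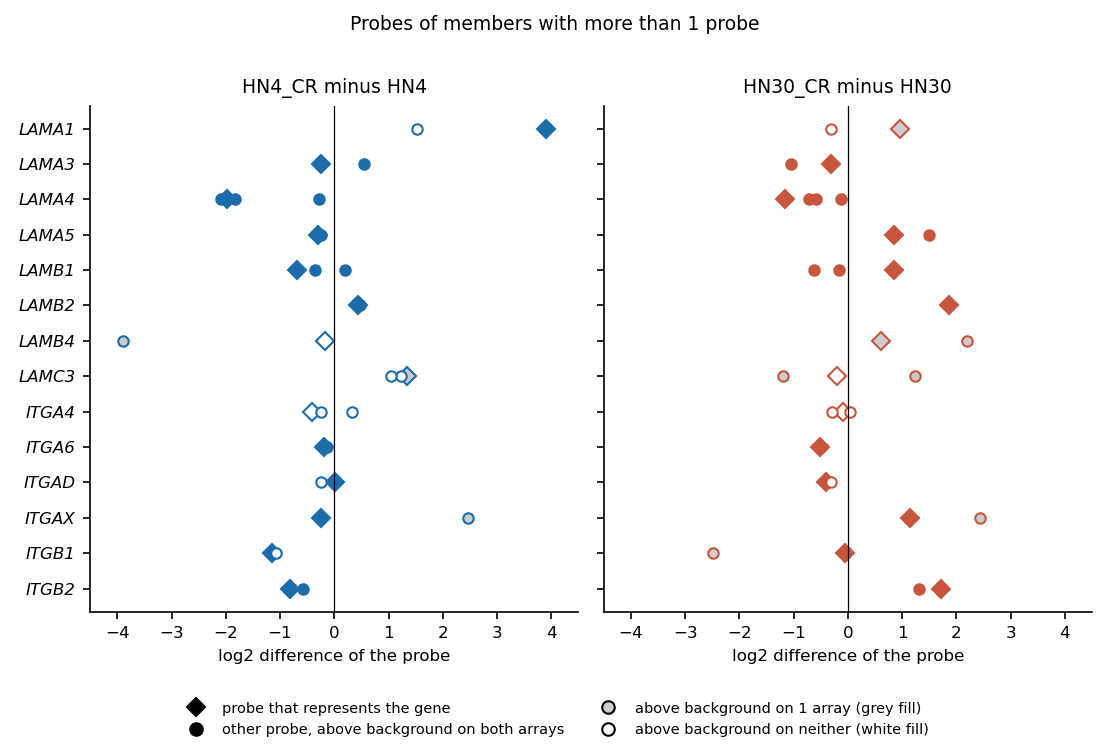
Difference in log2 level, resistant minus parental, of the probes of members with more than 1 probe, in HN4 (left) and HN30 (right), with diamonds for the probe that represents the gene, circles for the others, and grey or white fill where a probe was above background on 1 or neither array. The probes of LAMB2, ITGA6 and ITGB2 lie close together in both panels, and those of LAMB4 and LAMC3 do not.

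The genes around the receptors and chains were read from 5 lists. Of 6 hemidesmosome and anchoring fibril genes, COL17A1, the transmembrane collagen of the hemidesmosome, read -2.25 in HN4, 3.41 in HN4_CR, -1.71 in HN30 and 0.55 in HN30_CR, a difference of 5.67 and 2.26, and it was the only 1 of the 6 past 2. COL7A1, the collagen of anchoring fibrils, differed by -0.71 and 1.25, while the plakins PLEC and DST, the tetraspanin CD151 and ERBIN differed by less than 0.5 in both lines. COL17A1 was thus the gene of this structure with the largest difference, beside LAMB3, and ITGB4 was higher in HN30_CR only.

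Of 15 other basement membrane components, 6 were called higher past 1 in HN30_CR and 0 lower (12.9% and 8.67% of all genes), with a median difference of 0.76. In HN4_CR 3 were called higher and 3 lower (5.77% and 5.36% of all genes), with a median of -0.16. The same counts in the 12 laminins were 2 higher and 1 lower in HN30_CR and 3 higher and 1 lower in HN4_CR. HSPG2, the heparan sulfate proteoglycan perlecan, differed by 0.84 and 1.78, and FBLN1, a laminin-binding glycoprotein, by 1.05 and 1.06. Of those past 2, EGFLAM was at least 6.82-fold and NID1, which links laminin to collagen IV, at least 2.28-fold higher in HN4_CR from dim parental values. NPNT, a ligand of the α8β1 integrin, was at least 8.28-fold higher in HN30_CR, and NTN4, a netrin that interferes with laminin networks, differed by -1.67 and 2.57.

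Among 16 other integrin ligands the median difference was -0.21 in both lines. SPP1, osteopontin, read -2.93 in HN4 and 1.18 in HN4_CR, a difference of 4.11, and 0.71 in HN30. THBS1, thrombospondin, was lower in both lines (-3.25 and -1.98), and so was CCN1, named CYR61 on the array (-1.50 and -1.14). MADCAM1, the ligand of α4β7, was at least 4.43-fold higher in HN30_CR from a dim HN30 value. Of 30 adaptors and activators, 29 were above background on all arrays, with a median difference of -0.11 and -0.18 and a median size, whatever the sign, of 0.254 in HN4 and 0.501 in HN30 (0.349 and 0.521 over all genes). Past 1, 0 were higher and 2 lower in HN4_CR, and 2 were higher and 4 lower in HN30_CR, where 5.77% and 5.36% of all genes were called in HN4_CR and 12.9% and 8.67% in HN30_CR. TNS4, a tensin without an actin-binding end, differed by -0.69 and 2.45, and ITGB1BP1, an inhibitor of β1 activation, by -0.44 and -2.03. FERMT1, the epithelial kindlin that activates integrins, was lower in both lines (-1.29 and -1.87). Of 5 other laminin receptors with a probe, BCAM, which binds the laminin α5 chain, differed by -0.79 and 1.51, the same directions as LAMA5, and DAG1, SDC1 and SDC4 by less than 0.6.

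**Figure D5:**
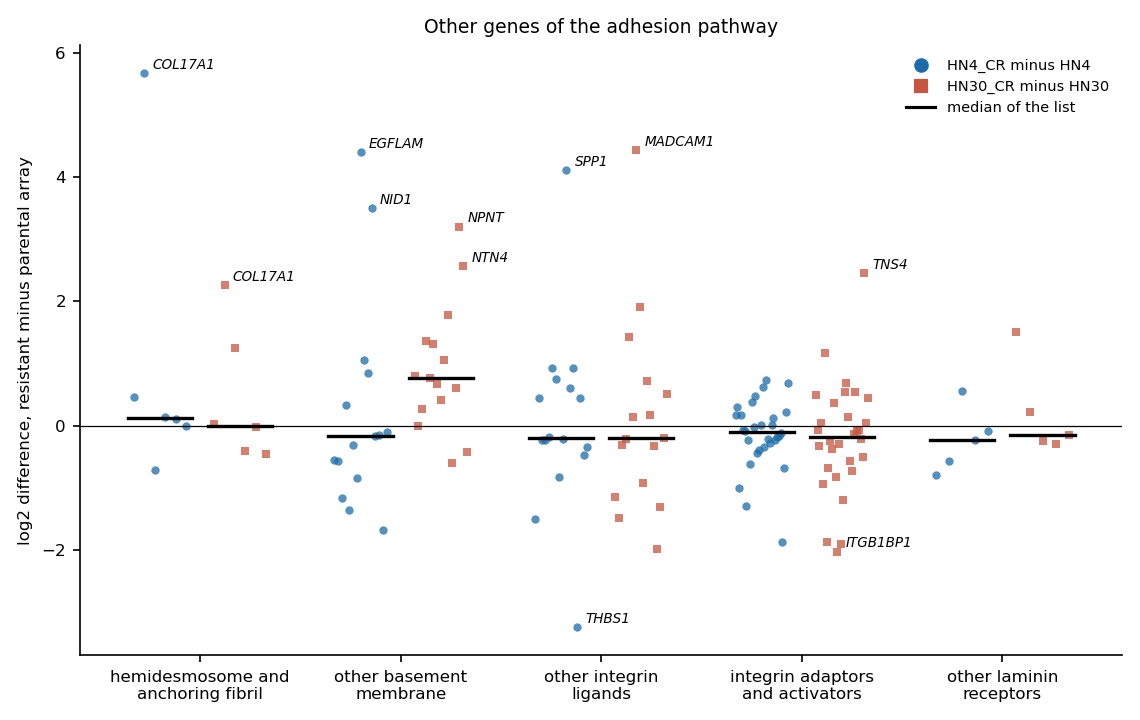
Difference in log2 level, resistant minus parental, of each gene of 5 lists around integrins and laminins, with circles for HN4, squares for HN30, a black line at the median of each list, and names for genes past 2 in either direction. COL17A1 is past 2 in both lines, and the basement membrane list has its median above 0 in HN30 (0.76) and below 0 in HN4 (-0.16).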

How the data were processed

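RNA of 4 cultures (HN4, HN4_CR, HN30 and HN30_CR) was labelled with Cy3 and hybridised to 1 Agilent human expression array each. The authors deposited the scanner output, in which Agilent Feature Extraction 10.7.1.1 had made the processed intensity of each spot by subtracting background. A table of log2 values was deposited by the authors as well, in which all arrays share 1 distribution, used here as an alternative. From the intensities, log2 was taken and the 75th percentile over the non-control spots of the array was subtracted. Outlier spots were dropped before averaging the spots of each probe, and the probe of highest mean over the 4 arrays stood for its gene. Probe positions in the deposited intensity files are on hg19, and whether a probe lies in coding sequence was not analysed here. A gene was called higher past a difference of 2 or 1 when the resistant array was well above background, and lower when the parental array was. The members and lists were chosen with earlier results of these data known. Members were named, except an item that is not reported here, and of other lists the genes past 2, at most 6 a list, and partners of members described. All 38 symbols are current in RefSeq, and 36 matched by accession. RPSA and LYZ were not analysed here. The number of arrays limits the precision. limma 3.58.1 (R 4.3.3) fitted the genes above background on 1 or more arrays with cell line as a block and a trend, and was tested on simulated data. Alternatives changed the background correction (normexp, offset 50), scaling, probe choice, pseudocount (16), filters and threshold. Other steps used Python 3.11.15, numpy 2.4.6, pandas 2.3.3 and matplotlib 3.10.9.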

Additional observations from a re-analysis of the deposited data

Results flagged for a closer look

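ITGB2, ITGA3 and LAMB1 were well above background on all arrays and moved in opposite directions in the 2 lines, each by more than 2 scanner SDs, and whether the lines truly differ was not tested. The HN30 difference exceeded the HN4 difference by 2.53 for ITGB2 (-0.81 and 1.72), by 1.27 for ITGA3 (-0.56 and 0.70) and by 1.54 for LAMB1 (-0.69 and 0.86), and the fainter LAMB1 probes did not show this.

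Probes that did not represent their gene read past 2 in 4 members. The RefSeq probe of ITGAX differed by 2.46 in HN4 and 2.43 in HN30, from dim parental values. The second LAMB4 probe differed by -3.89 in HN4 and 2.19 in HN30, with a dim value on 1 array of each pair. The second ITGB1 probe differed by -2.49 in HN30, where HN30_CR was dim, and a second LAMA4 probe by -2.09 in HN4, above background on both arrays.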

How the results depend on the processing

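No paired analysis was possible because each condition has 1 array and thus no 2 replicate numbers, apart from the limma fit, which pairs each resistant line with its parental line. The counts of members past 2 moved under several settings. With the faintest probe above background HN4_CR had 2 higher and 1 lower, HN30_CR 3 higher and 1 lower, and 1 was higher in both, and with the mean of the probes HN4_CR had 1 lower. In HN30_CR 0 members were higher than 2 with normexp, median scaling, a pseudocount of 16 or the percentile over averaged probes (added after seeing the data), and 2 with quantile scaling, the authors' deposited values or the percentile over probes above background on all arrays. Median scaling put 1 lower. A threshold of 1 gave 4 higher and 3 lower in HN4_CR, 7 and 2 in HN30_CR, and 1 and 1 in both. Past 1, normexp left 2 higher in HN4_CR, 4 in HN30_CR and 0 in both. Median scaling gave 3 higher and 4 lower in HN30_CR, and the percentile over probes above background on all arrays 12 higher, 1 lower, and 3 and 0 in both. In both lines 2 were higher with quantile scaling, the deposited values, the mean of the probes or the faintest probe, and the faintest probe left 0 lower. The median of the members in HN30 was -0.015 with normexp, 0.029 with median scaling and 0.71 with the percentile over probes above background on all arrays, and in HN4 the mean was -0.031. The HN30 median of the integrins became -0.053 with normexp and -0.23 with median scaling, and the HN4 laminin value became 0.12 with the faintest probe and 0.33 as a mean. These causes were not tested. Of 836 single differences under alternatives, 662 moved by less than the scanner SD and 174 by more. ITGAM in HN30 fell to 0.90 with normexp, and LAMA1 in HN4 to 2.38. limma called 0 genes under all 6 alternative fits, with the smallest adjusted p from 0.213 to 0.667. Dim probes give bounds only, and arrays without repeats leave the spread between cultures unmeasured.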

Other observations

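Among the squamous markers, 4 keratins are given by value. KRT5, a keratin of basal cells, read 2.79 in HN4, -1.26 in HN4_CR, 2.84 in HN30 and 0.91 in HN30_CR, and was lower in both resistant lines. KRT14 and KRT17 were higher in HN4_CR (2.33 and 3.29) and differed by 0.22 and 0.19 in HN30. KRT6A, a keratin of wounded epithelium, differed by 3.32 in HN4 and was at least 183-fold lower in HN30_CR, where it was dim. Of the cadherins of cell junctions, DSC3 differed by -2.95 and 1.12, DSG3 by 1.84 and 0.55, and CDH1, the ligand of the αE chain, by 0.58 and 1.34.

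Of the genes named for endothelium, VWF, CLDN5 and PECAM1 passed 2 in a line. CLDN5 was above background in HN30_CR only, at least 5.75-fold over HN30. VWF, which is also a ligand of platelet integrins, was at least 5.37-fold higher in HN4_CR and differed by 1.49 in HN30, and PECAM1 was at least 2.05-fold lower in HN4_CR and at least 1.64-fold higher in HN30_CR.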
